A study of Mus musculus with 3 samples.

Results

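SUMO proteins are small modifiers that cells attach to lysines of other proteins. Of this pathway, 8 genes were followed in mouse four-cell embryos: the modifiers Sumo2 and Sumo3, Sae1 and Uba2, whose products form the enzyme that activates SUMO, and the ligases Pias1, Pias2, Pias3 and Pias4. They were taken by gene name, and Pias2 was in addition chosen by its measured log2 ratio of treated over control embryos, so that ratio is described without a test. The array tables hold Sae1 and Uba2 under the older names Uble1a and Uble1b. The array names 27670 genes with 41174 probes, and the 8 genes have 15 of these probes.

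Each of 3 two-colour Agilent arrays, all on 1 slide, held a pool of embryos from oocytes kept at 20 MPa of hydrostatic pressure (HP) for 60 min at 37 °C, and a control pool from oocytes handled alike without pressure. Per the sample labels all oocytes were then fertilised by ICSI, the injection of a sperm into the oocyte, and grown to the four-cell stage, while the title of the series says in vitro fertilised. The HP pools of replicates 1, 2 and 3 held 44, 30 and 37 embryos, and the control pools 36, 33 and 24. Mouse strain and age are not given in the sources used here. Cy5 always marked HP and Cy3 always control, and with no dye swap the dye and the pressure cannot be told apart. The pools are whole embryos amplified from 240 pg of RNA, in which fewer cells of a kind and less RNA per cell cannot be told apart. Nothing in the labels says whether the pools came from separate females, so the tests measure the spread between these 3 pairs of pools.

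Attachment of SUMO runs in steps: the Sae1-Uba2 pair activates the modifier, ligases such as the PIAS proteins and Ranbp2 help to place it on targets, and proteases of the Senp family mature it and remove it again. SUMO2 and SUMO3 are nearly identical in their mature form and can build chains. Mouse embryos that lack Sumo2 die before birth, while mice without Sumo3 are viable. The PIAS proteins were first named as inhibitors of activated STAT transcription factors and carry a RING-like domain.

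The array design (mouse mm7) spreads the 60 bases of 4 probes shown here over 1068 to 2631 bases of the genome, as a probe across an exon junction does. They are shown for this span, by which each would read spliced RNA of its gene. A Pias2 probe of this kind is not shown. None of the 4 had enough signal to be tested. The capitals mark the longest run shared by the Pias1 and the Pias3 probe, 11 bases, which lies in a stretch where 26 of 33 aligned bases match.
Pias1: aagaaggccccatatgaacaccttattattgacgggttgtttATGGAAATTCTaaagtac
Pias3: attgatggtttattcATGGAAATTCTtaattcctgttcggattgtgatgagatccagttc
Pias4: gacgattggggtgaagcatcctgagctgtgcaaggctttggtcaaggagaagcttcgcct
Sae1: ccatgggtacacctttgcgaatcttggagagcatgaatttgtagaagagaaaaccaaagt
The design places the Pias1 probe (A_51_P312166) on chr9:62921590-62924220, minus strand, and the Pias3 probe (A_51_P152167) on chr3:96576460-96577527, plus strand. The Pias4 probe (A_51_P244892) lies on chr10:80947885-80949049 and the Sae1 probe (A_52_P5652) on chr7:14128935-14130596, both on the minus strand. Each holds at least 1 reading frame without a stop codon, as do 78.3% of all probes of the array. The Sumo2 probe shared no run longer than 7 bases with a probe of Sumo3 or any other member.

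Signal was the first difference among the members. A reading here is 1 channel of 1 array, so each probe has 6, and the scanner software calls a reading well above background or not. For 7 probes no reading was well above background, and for 3 only 1 was. A probe was tested when the same channel was well above background on at least 2 of the 3 arrays, which held for 8590 probes of the array and for 5 of the members: 1 each of Sumo2, Sumo3, Uba2, Pias1 and Pias2. In all 6 readings 4 of these were well above background, and the Pias1 probe was in 5. The 10 dim probes had normalized log2 levels between 6.11 and 6.75 and log2 ratios, HP over control, between −0.45 and 0.09 on any array. This narrow range holds for the processing used here. In the deposited log ratios the means of these probes ran from −1.36 to 0.35, both for probes of Pias2. No difference between HP and control can be read from the dim probes.

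The arrays as a whole set the frame for these values. Of the non-control spots, 17.5% to 23.2% were well above background in a channel, and none was saturated. Of 10 markers of the preimplantation embryo 5 were well above background in all 6 readings (Dppa3, Zp3, Khdc3, Oog1 and Btg4), and Nlrp5, Ooep and Zar1 in none. Of 7 markers of cumulus and granulosa cells 6 were above background in no reading and Ptx3 in 2, and of 5 sperm markers only Prm1 (5 readings) and Prm2 (1 reading) had any. The pair of HP pools in replicates 2 and 3 was the most alike, with an SD of 0.23 for their difference in log2 level over the tested probes, against 0.45 to 0.54 for the other HP pairs and 0.46 to 0.52 for control pairs. Means of the tested member probes are therefore also given with these replicates counted as 1.

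For the modifiers Sumo2 and Sumo3 no difference between HP and control passed the test. Sumo2 (probe A_51_P427906, chr11:115632435-115632494, minus strand) had log2 levels of 12.21, 11.97 and 11.92 in the HP pools of replicates 1, 2 and 3, and of 12.05, 12.07 and 11.85 in the control pools. The groups overlapped, and the HP pool was the higher on 2 arrays and the lower on 1. The log2 ratio was 0.16, −0.10 and 0.07, with a mean of 0.04 ± 0.12 (standard error, n = 3; limma adjusted p = 0.854) and a 95% interval from −0.27 to 0.36. This interval holds for loess scaling alone: with median centring the mean was −1.06 (limma adjusted p = 0.0591). With replicates 2 and 3 counted as 1 the mean was 0.07.

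Sumo3, whose ratio also took both signs, was read close to background. Its tested probe (A_51_P424448, chr10:77271500-77271559, plus strand) had log2 levels of 7.12, 6.62 and 6.79 in HP and of 6.84, 6.61 and 6.86 in control. The pools of replicate 1 differed most, and the groups overlapped. The mean log2 ratio was 0.08 ± 0.13 (limma adjusted p = 0.756), with an interval from −0.27 to 0.42, and was 0.13 with replicates 2 and 3 counted as 1. The other Sumo3 probe (A_52_P205572), 621 bases away in the design, was well above background only in the control pool of replicate 3. Its 3 ratios were 0.01, 0.07 and −0.09.

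Of the activating enzyme, Uba2, the catalytic subunit, could be measured and Sae1, its partner, barely. Uba2 (probe A_51_P120257, chr7:31028539-31028598, minus strand) had log2 levels of 8.07, 8.38 and 8.41 in HP and of 8.41, 7.95 and 8.09 in control. The HP pools of replicates 2 and 3 exceeded their controls, and the HP pool of replicate 1 lay below its own. The log2 ratios of −0.34, 0.43 and 0.32 gave a mean of 0.13 ± 0.20 (limma adjusted p = 0.724) and the widest interval of the modifiers and activating enzymes, from −0.41 to 0.68. The mean was 0.37 without replicate 1, −0.01 without replicate 2 and 0.01 with replicates 2 and 3 counted as 1.

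Both Sae1 probes were well above background in 1 control pool and in no HP pool. For A_52_P5652, the junction probe shown above, this was the control pool of replicate 1, and its log2 levels were 6.37, 6.29 and 6.34 in HP against 6.54, 6.48 and 6.34 in control. For A_51_P308447 (chr7:14089975-14090034, minus strand) it was the control pool of replicate 2, at 6.75, while the other control pools were at 6.25 and 6.23, no higher than the HP pools. Only 1 control array of 3 measured each of them, so no test was made.

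Among the ligases Pias2 had the highest ratio, for which it was chosen. Its probe A_52_P470306 had log2 levels of 9.69, 9.79 and 9.70 in the HP pools and of 8.68, 8.43 and 7.08 in the control pools of replicates 1, 2 and 3. The groups did not overlap. The HP pools spanned only 0.09 on the log2 scale and the control pools 1.60, so the log2 ratios of 1.01, 1.36 and 2.62 differed mainly through the control level. The mean was 1.66 with an SD of 0.85 (n = 3), or 3.17-fold higher in HP. Replicate 3, with the lowest control level, raised the mean: without that replicate the mean was 1.19, and without replicate 1 it was 1.99. With replicates 2 and 3 counted as 1 it was 1.5. No overlap of groups was seen for 25.7% of all tested probes, while 22.6% were higher and 24.9% lower in HP on all 3 arrays, and nothing is read from these shares for a gene chosen on its ratio.

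That ratio rests on 1 of 4 Pias2 probes. The next probe (A_51_P339858), 327 bases downstream in the design, was not well above background in any reading and had log2 ratios of −0.30, −0.12 and 0.01. Another (A_52_P534203) lies a further 1784 bases downstream and is named after a cDNA from olfactory brain rather than the Pias2 reference transcript. It gave 0.02, 0.09 and −0.02. The remaining one (A_52_P85945), which by its design span crosses an exon junction 22929 bases upstream of the bright probe, gave 0.06, 0.03 and −0.01. In the deposited log ratios their means were −1.36 (A_51_P339858), 0.35 (A_52_P534203) and −0.02 (A_52_P85945), against 2.28 for the bright probe. All readings of these 3 probes were at background, so they give no second measurement of Pias2 under either scaling. The mean over all 4 probes was 0.40, which takes in those background readings and is no measure of the gene.

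**Figure D1:**
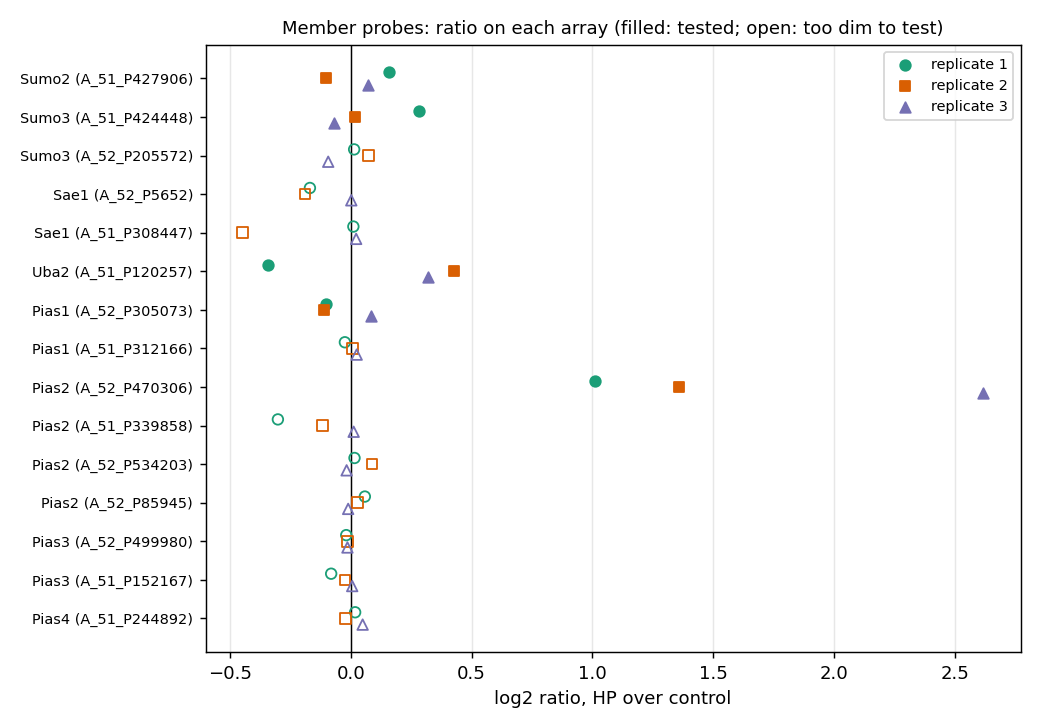
Log2 ratio of HP over control (horizontal axis) for each of the 15 member probes (rows) on each of the 3 arrays (symbols); filled symbols are tested probes and open symbols probes too dim to test. Apart from the Pias2 probe A_52_P470306, at 1.01, 1.36 and 2.62, all values lie between −0.45 and 0.43.

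Pias1 was the only other ligase of the family with a tested probe. The probe A_52_P305073 (chr9:62908720-62908779, minus strand) had log2 levels of 6.53, 6.47 and 6.44 in HP and of 6.63, 6.58 and 6.36 in control, close to background throughout. The groups overlapped, and the log2 ratios of −0.10, −0.11 and 0.08 had a mean of −0.04 ± 0.11 (limma adjusted p = 0.845; interval −0.35 to 0.26). Taken from the deposited log ratios instead, its mean was 0.46, and with replicates 2 and 3 counted as 1 it was −0.06. The junction probe of Pias1 was at background in all readings.

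Pias3 and Pias4 were not detected. Both Pias3 probes, A_51_P152167 and A_52_P499980 (chr3:96579214-96579273, plus strand), and the single Pias4 probe were well above background in 0 of 6 readings. Their log2 levels were 6.11 to 6.37, and their ratios ran from −0.08 to 0.05. The arrays cannot show whether these transcripts were absent or under the reach of the probes. Of the 9 PIAS probes 2 were tested, so no statement on the family as a whole can be made from its ratios.

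Leaving Pias2 aside, 4 member probes were tested. None of the 4 had the same direction on all 3 arrays, against 47.5% of all tested probes. At an unadjusted limma p under 0.05 there were 0 of 4, against 17.8% of all tested probes (7.01% higher and 10.8% lower in HP). An adjusted p under 0.05 was reached by 0% of the 8590 probes, with a lowest value of 0.177, so the adjusted test separates no gene on these arrays. With so few member probes these counts are a description. Within the members, the spread between HP pools of replicates 2 and 3 was small (0.03 for Uba2 and Pias1, 0.05 for Sumo2, 0.09 for Pias2 and 0.16 for Sumo3), as it was over all probes, while their control pools differed by 0.13 to 1.35.

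**Figure D2:**
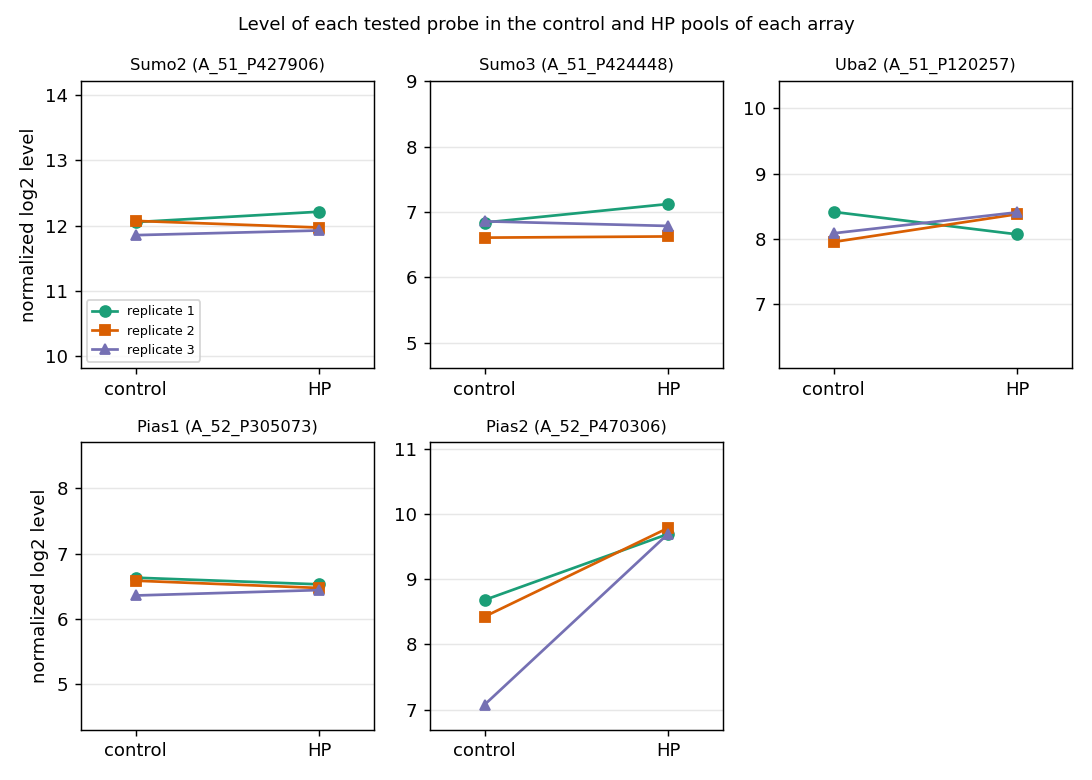
Normalized log2 level (vertical axis, the same length of scale in each panel) in the control and HP pool of each array, joined by a line, for the 5 tested member probes. The HP levels of Pias2 span 0.09 and its control levels 1.60; lines of Sumo2, Sumo3, Uba2 and Pias1 run in both directions.

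Other genes of the pathway were read from a list of 28, of which 19 had a tested probe and are given by the brightest one. Of these, 7 were higher and 12 lower in HP, with a median log2 ratio of −0.09, beside −0.01 over all 7254 tested genes. Under median centring the list lay above all genes instead, with medians of −0.25 and −0.39. At an unadjusted limma p under 0.05, 2 were higher (Desi2 and Uspl1) and 2 lower (Slx4 and Pml), that is 4 of 19 against 18.7% of all tested genes (7.38% higher and 11.3% lower). By the limma adjusted p 0 genes passed, of the list or of all tested genes. HP and control levels did not overlap for 4 of 19, against 26.5% of all genes. On all 3 arrays 4 were higher and 5 lower, against 23.2% and 25.0% of all genes (48.2% in either direction). These shares lie near those of the array as a whole.

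Removal of SUMO was represented by 6 tested proteases. The ends of the range were on the higher side Uspl1, a SUMO protease of Cajal bodies, with 0.47, 0.99 and 1.33 (mean 0.93 ± 0.20; limma adjusted p = 0.191), and Desi2, counted with the deSUMOylating peptidases, with 0.62, 0.70 and 0.95 (mean 0.76 ± 0.12; limma adjusted p = 0.177). The Senp proteases lay closer to 0, with Senp5 at 0.30, Senp7 at −0.03, Senp3 at −0.07 and Senp6 at −0.09, and no p under 0.05. Senp1, Senp2 and Desi1 had no tested probe. The HP and control levels of Uspl1 and Desi2 overlapped. In the HP pool of replicate 1 Uspl1 was at 7.33 and Desi2 at 7.37. In the control pool of replicate 2 both were at 7.44. Under median centring Uspl1 and Desi2 were at 0.35 and 0.20, and neither had an unadjusted limma p under 0.05 (0.136 and 0.298). Uspl1 also missed that threshold with scale normalization between arrays (0.0729) and with replicates 2 and 3 counted as 1 (0.0519).

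On the lower side were ligases or ligase candidates, and genes whose products are modified by SUMO or bind it. Slx4, a scaffold of DNA repair nucleases listed as a ligase candidate, had the lowest mean, with −1.05, −0.76 and −0.46 (mean −0.75 ± 0.16; limma adjusted p = 0.180). Its log2 levels were 7.71, 7.80 and 7.79 in HP and 8.76, 8.56 and 8.24 in control, without overlap. Pml, the SUMO-bound organiser of nuclear bodies, followed the same direction with −0.36, −0.66 and −0.51 (mean −0.51 ± 0.12; limma adjusted p = 0.196). Daxx, a histone chaperone found in these bodies, was at 0.05, −0.73 and −1.17 and the ligase Ranbp2 of the nuclear pore at 0.02, −0.35 and −0.67, so both were low only in replicates 2 and 3. A second tested probe of Ranbp2 gave 0.29, 0.02 and −0.18. With median centring Slx4 and Pml were at −1.45 and −1.11 and passed adjustment (limma adjusted p = 0.0421 and 0.0422), among 1135 lower and 5 higher probes of the array. In the deposited log ratios both missed an unadjusted limma p of 0.05 (0.051 for Slx4 and 0.0539 for Pml). Pml missed that threshold as well with replicates 2 and 3 counted as 1 (0.0527), without replicate 2 (0.0663) and without replicate 3 (0.0739).

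**Figure D3:**
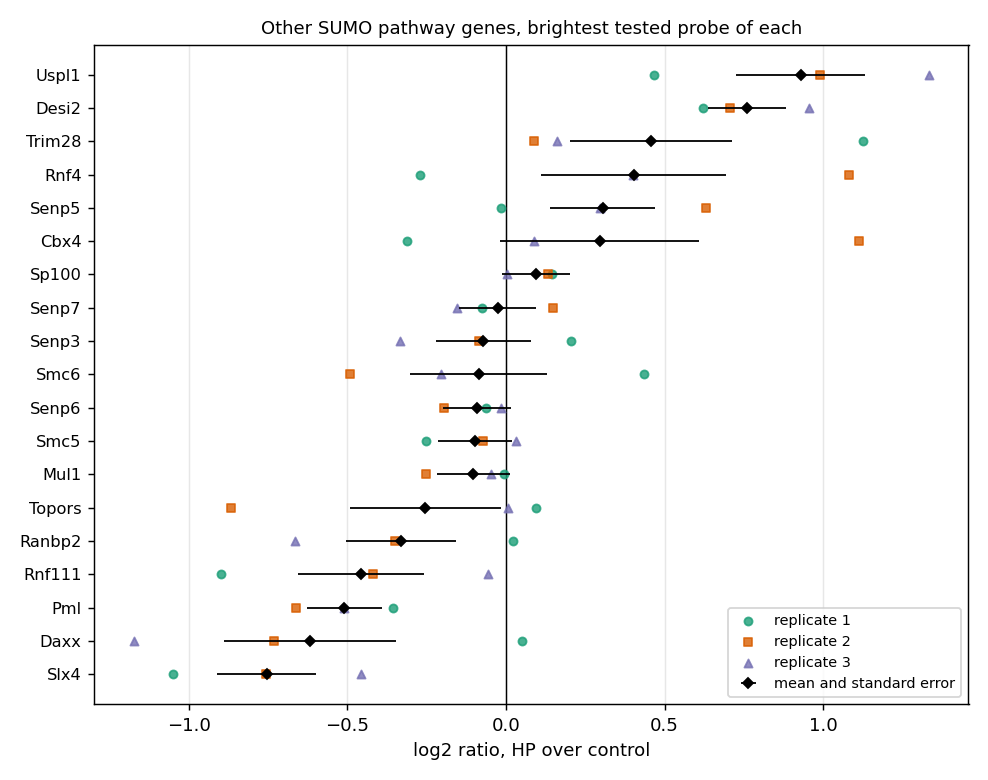
Log2 ratio of HP over control for the brightest tested probe of 19 other SUMO pathway genes, in order of the mean; diamonds with bars are the mean and moderated standard error over 3 arrays, coloured symbols the single arrays. Uspl1 and Desi2 stand at the upper end (0.93 and 0.76) and Slx4 at the lower end (−0.75).

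The genes whose ratios lay nearest to those of Pias2 were sought among 6313 named genes outside the pathway, by Euclidean distance over the log2 ratios of the 3 arrays. Oog3, an oocyte-specific gene, was nearest at a distance of 0.52, with ratios of 0.89, 1.85 and 2.49. Fam72a followed at 0.79 with 0.46, 1.49 and 2.07, and the peroxidase Prdx4 at 0.81 with 1.26, 2.01 and 2.21. They were picked for lying near the Pias2 ratios, so the order of the arrays they share with it follows from that choice. The likeness is over 3 arrays that share their pools, and carries no test.

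The scaling moved the members by more than their standard errors. Loess removes the trend of the ratio with intensity within each array. Median centring leaves it in place and puts the median of all tested probes at −0.37. Under it Sumo2 went from 0.04 to −1.06 (limma adjusted p = 0.0591), Uba2 from 0.13 to −0.58 and Sumo3 from 0.08 to −0.19. Pias2 was at 0.87 with median centring and at 2.28 in the deposited log ratios, the lowest and highest of its values under the scalings shown. Relative to the median of all tested probes under median centring Sumo2 was at −0.69, Uba2 at −0.21, Sumo3 at 0.18 and Pias1 at 0.21.

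**Figure D4:**
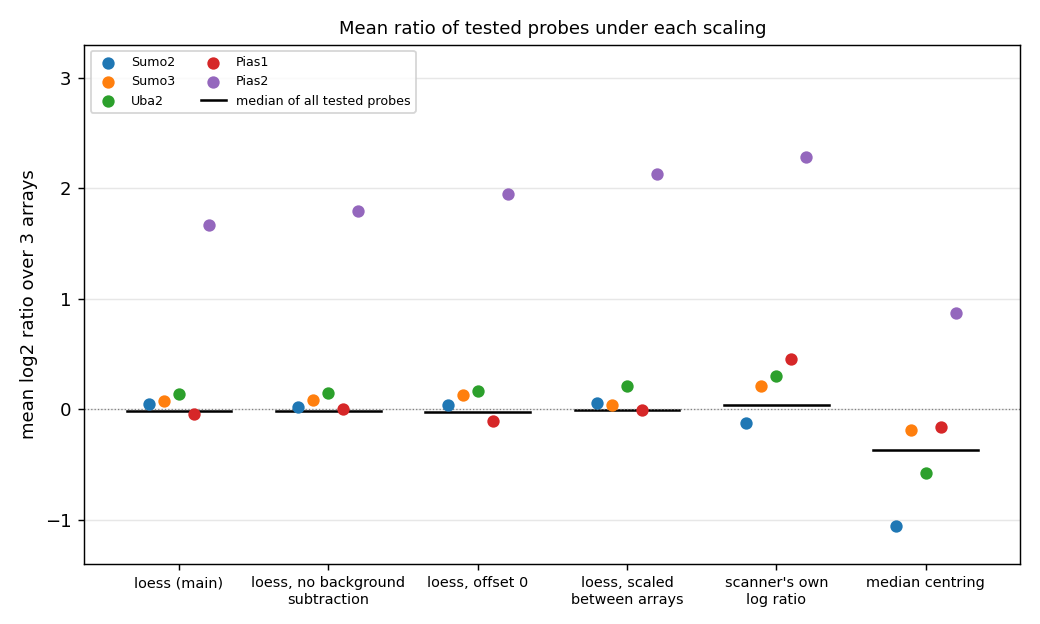
Mean log2 ratio over 3 arrays (vertical axis) of the 5 tested member probes under 6 scalings (horizontal axis); black bars are the median of all tested probes. Pias2 is highest under each, from 0.87 to 2.28, but it was chosen for its ratio on these arrays, so its rank is no check. Sumo2, Sumo3 and Uba2 are above 0 with loess and below 0 with median centring.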

How the data were processed

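Scans of 3 arrays were quantified by the authors with Agilent Feature Extraction 9.5.1.1, per the file headers. The deposited mean signals and local background signals are intensity values without subtraction. The deposited log10 ratio is Cy5 over Cy3 of the processed signals to within 0.0865, and the authors' series table repeats it (largest difference 5e-10). Its median was 0 on each array, where 43.4% to 53.0% of the values were 0. Signals were background-corrected in limma 3.58.1 (R 4.3.3) by normexp with offset 50, loess-normalized within arrays with control spots at weight 0, and averaged over spots of a probe. Outlier-flagged spots were left out. Levels per channel follow quantile scaling of the mean log2 intensity between arrays. Log2 ratios of 8590 probes were fitted with an intercept and empirical Bayes moderation, with Benjamini-Hochberg adjustment over all of them and a threshold of 0.05. The steps were tested on simulated data. Symbols were updated through the RefSeq gene table, by accession for 22951 probes, symbol for 6659 and unique synonym for 3109, and kept for 8455. Coordinates are mm7, as in the array design. Members, pathway list and alternatives were chosen with earlier results of these data known. Every member probe is given. From the list, genes with an unadjusted p under 0.05 and both extremes are named by rule, as are the 3 genes nearest to Pias2. Senp, Daxx and Ranbp2 values were picked after they were seen. Some items of the pathway are not reported here, and the list and its counts leave them out.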

Additional observations from a re-analysis of the deposited data

How the results depend on the processing

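The count of probes with a limma adjusted p under 0.05 was 0 in every setting except median centring, where it was 1140. With the main processing described above it was 0 also at a threshold of 0.1. That threshold was passed without replicate 1 (lowest limma adjusted p 0.0688) and with channels treated as separate (0.067). Probes with an unadjusted p under 0.05 numbered 602 higher and 926 lower, 57 and 2921 with median centring, 1106 and 1479 without the filter on dim probes, and 555 lower with replicates 2 and 3 counted as 1. Leaving out 1 replicate gave 309 to 937 higher and 489 to 1194 lower. For the pathway list the counts of 2 higher and 2 lower became 0 and 6 with median centring and 1 and 1 with replicates 2 and 3 counted as 1. Scale normalization between arrays gave 1 higher, and 0 were lower with the scanner's log ratios and the series table. Without 1 replicate they ran from 2 to 4 higher and from 1 to 4 lower, the 4 in both without replicate 1. The list's median of −0.09 was −0.25 with median centring. All genes together were then at −0.39, so the list's difference from them turned to 0.14. The list's median was −0.25 also with the scanner's log ratios and the series table, at −0.30 relative to all genes, −0.16 with offset 0, 0.0039 with both channels required above background, −0.039 with replicates 2 and 3 counted as 1, and −0.11 to −0.027 without 1 replicate.

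Signs turned for several probes near 0, and the cause was not tested. Median centring turned Sumo2 (−1.06), Sumo3 (−0.19) and Uba2 (−0.58). The scanner's log ratios and the series table turned Sumo2 (−0.12) and Pias1 (0.46), and no background subtraction turned Pias1 (0.0056). Leaving out 1 replicate moved Sumo2 between −0.015 (without replicate 1) and 0.12, Sumo3 between −0.026 (without replicate 1) and 0.15, and Uba2 between −0.011 (without replicate 2) and 0.37. Channels treated as separate, with no replicate block, gave 0 calls at a limma adjusted p under 0.05. The Pias2 mean of 1.66 is the same there by construction, since the difference of channel means equals the mean log2 ratio. It is therefore no further check of that ratio. The tested probes of Pias1 and Sumo3 are dim, which limits their ratios.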
